A study of Danio rerio with 6 samples.

Results

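Vascular endothelial growth factor (VEGF) signalling was followed through 10 genes of the deposited table, 4 VEGF receptors (kdrl, kdr, flt1 and flt4), 3 ligands (vegfaa, vegfab and vegfc) and 3 neuropilins (nrp1a, nrp1b and nrp2a). They were chosen by gene name out of 29126 entries, and all 10 were found under their own names. This choice, like that of the pathway lists below, was made with earlier results of these data known. Shares called, given beside those of all genes, are therefore a description and no test of an excess. The cells come from Tg(fli1:EGFP) zebrafish, which carry a green fluorescent reporter driven by regulatory sequence of fli1a, which is active in vessels, in part of the blood lineage and in pharyngeal arch tissue. RNA sequencing was done on 3 populations named High-Fli1+, Low-Fli1+ and Fli1-, with 2 libraries each. All 3 carry the transgene, and all libraries were made from 100 ng of total RNA after poly-A enrichment. Neither an age nor a treatment is given in the labels, nor is the way the populations were separated. Nothing says that the 2 libraries of a population came from separate animals or sorts, so p-values measure the spread between these libraries, which may be technical.

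VEGF-A ligands bind receptor tyrosine kinases on endothelial cells and drive the sprouting of new vessels, while VEGF-C acts mainly through Flt4 in veins and lymphatic vessels. Zebrafish carry a pair of VEGF-A genes, vegfaa and vegfab, and a pair of genes that share the role of mammalian VEGFR2, kdrl and kdr. Flt1 binds VEGF-A tightly and restrains signalling, in part through a soluble form that a value per gene does not separate from the membrane form. Neuropilins are co-receptors for VEGF and also receptors for class 3 semaphorins, and in the embryo they are expressed in neurons and mesenchyme as well as in vessels.

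Values are FPKM (fragments per kilobase of transcript, scaled to the mapped fragments of the library) as the authors deposited them, so levels are scaled by length and can be compared between genes. The reporter's gene fli1a had 241 and 192 FPKM in High-Fli1+, 66.8 and 52.0 FPKM in Low-Fli1+ and 1.04 and 5.55 FPKM in Fli1- libraries, in the order of the labels. Of 10 endothelial markers, such as cdh5, pecam1 and tie1, all were above 0 in both High-Fli1+ libraries, where they summed to 117 and 132 FPKM. The sum was 15.5 and 14.0 FPKM in Low-Fli1+ and 10.7 and 8.66 FPKM in Fli1- libraries. In High-Fli1+ cells 7 of the 10 were called higher than in Fli1- cells by limma, cdh5 not among them, beside 5.79% of all genes. Against Low-Fli1+ cells 3 were called higher, beside 1.22%. Between Low-Fli1+ and Fli1- cells 0 of the 10 were called, with 0 at an unadjusted p under 0.05, beside 3.23% and 20.7% of all genes. The endothelial markers clec14a and etv2 were at 0 in both Low-Fli1+ libraries. These libraries listed the most entries at 0, 14082 and 12575, against 11054 and 11457 in High-Fli1+ and 8683 and 8451 in Fli1- libraries. By its sum, the endothelial marker level was near that of Fli1- libraries in Low-Fli1+ libraries, although fli1a was not. Their 6 leukocyte markers summed to 460 and 639 FPKM, against 110 and 140 FPKM in High-Fli1+ and 13.8 and 16.3 FPKM in Fli1- libraries. Cartilage markers summed to 12385 and 10218 FPKM in High-Fli1+, 1171 and 1187 FPKM in Low-Fli1+ and 129 and 175 FPKM in Fli1- libraries, with all 6 markers called higher in High-Fli1+ cells in both of their comparisons. High-Fli1+ libraries thus held transcripts of cartilage beside those of endothelium, and the part of either in the results below was not tested.

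Among the 10 VEGF genes, the 4 receptors were those called between High-Fli1+ and Fli1- cells. All 4 were higher in High-Fli1+ cells, and they were the only ones of the 10 genes called in any of the 3 comparisons. The ligands and neuropilins among the 10 were not called in any. Whether their changes differ from those of the receptors was not tested. Low-Fli1+ libraries held intermediate levels of kdrl, kdr and flt1, while flt4 stood closer to its High-Fli1+ level on the log2 scale.

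**Figure D1:**
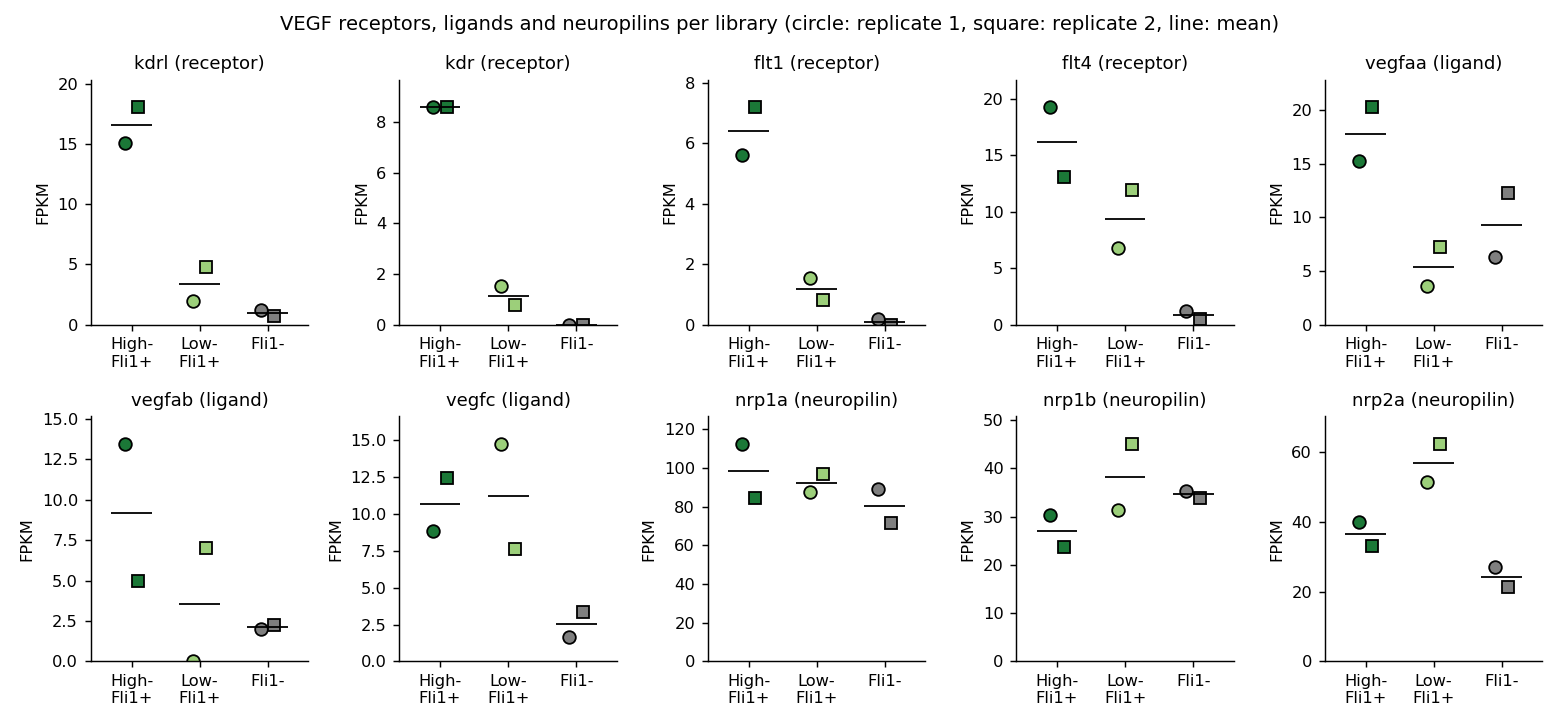
FPKM of each VEGF receptor, ligand and neuropilin in the 6 libraries, with populations along the x axis, circles for replicate 1, squares for replicate 2 and a line at the mean of the 2. The receptors are highest in High-Fli1+ libraries (kdrl at 15.1 and 18.1 FPKM), nrp2a is highest in Low-Fli1+ libraries (51.5 and 62.5 FPKM), and the y axes differ between panels.

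Among the receptors, kdrl, the main VEGF-A receptor of zebrafish vessels, had 15.1 and 18.1 FPKM in High-Fli1+, 1.98 and 4.80 FPKM in Low-Fli1+ and 1.19 and 0.725 FPKM in Fli1- libraries. The 3 populations did not overlap. In High-Fli1+ against Fli1- cells the difference was 9.01-fold on the log2(FPKM + 1) scale used for every fold change here, which understates changes of low genes (3.17 ± 0.54 (SE) as log2, adjusted p = 0.0151 by limma). Fewer cells that express a gene and less RNA of it per cell cannot be told apart in such bulk libraries. Its paralogue kdr, the other VEGFR2-type receptor, had 8.58 and 8.59 FPKM in High-Fli1+ and 1.54 and 0.766 FPKM in Low-Fli1+ libraries and was listed at 0 in both Fli1- libraries. In High-Fli1+ cells it was called higher (adjusted p = 0.0110 by limma), and no fold is given against a population at 0. A second entry, si:ch211-278f21.4, carries a name that RefSeq (assembly GRCz12tu) lists as a synonym of kdr. It was listed at 0 in all High-Fli1+ and Low-Fli1+ libraries and had 0.581 and 0.477 FPKM in Fli1- libraries, under the minimum for testing. How fragments were divided between both entries is not given in the sources used here, which limits what the zeros of kdr show.

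The decoy-type receptor flt1 had 5.63 and 7.21 FPKM in High-Fli1+, 1.55 and 0.830 FPKM in Low-Fli1+ and 0.205 and 0 FPKM in Fli1- libraries. It was the lowest of the 4 receptors in both High-Fli1+ libraries, and the 3 populations did not overlap. Against Fli1- cells it was called higher in High-Fli1+ cells (6.72-fold, 2.75 ± 0.50 (SE) as log2, adjusted p = 0.0184 by limma). The VEGF-C receptor flt4 had 19.3 and 13.0 FPKM in High-Fli1+, 6.81 and 11.9 FPKM in Low-Fli1+ and 1.22 and 0.492 FPKM in Fli1- libraries. Its lower High-Fli1+ value lay just above its higher Low-Fli1+ value. Against Fli1- cells, High-Fli1+ cells held 9.26-fold more (3.21 ± 0.51 (SE) as log2, adjusted p = 0.0126 by limma). For kdr and flt1, Low-Fli1+ values lie near the smallest those libraries hold, since the 5th percentile of all values above 0 was 0.915 and 0.660 FPKM there, against 0.330 and 0.267 FPKM in High-Fli1+ and 0.281 and 0.277 FPKM in Fli1- libraries.

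With Fli1- cells as the comparison, 4 of the 10 genes were thus called higher and 0 lower, beside 5.79% of all 19237 genes tested called higher, 11.5% called lower and 17.2% called in all. At an unadjusted p under 0.05, limma gave 5 of the 10, beside 32% of all genes, and the fifth was vegfc. All 10 passed the filter at a mean of 0.5 FPKM over the 6 libraries. Both High-Fli1+ libraries lay above both Fli1- libraries for 8 of the 10, beside 21.6% of all genes, and below them for nrp1b, beside 44.2%. The median log2 fold change of the 10 was 1.67, beside -0.35 for all genes tested, and relative to that median kdrl was at 3.52, flt1 at 3.10 and flt4 at 3.56. The receptor calls need both libraries of each compared population. Leaving out High-Fli1+ replicate 1, High-Fli1+ replicate 2, Fli1- replicate 1 or Fli1- replicate 2 left none of the 4 called, with adjusted p between 0.0559 and 0.128, while their directions stayed.

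**Figure D2:**
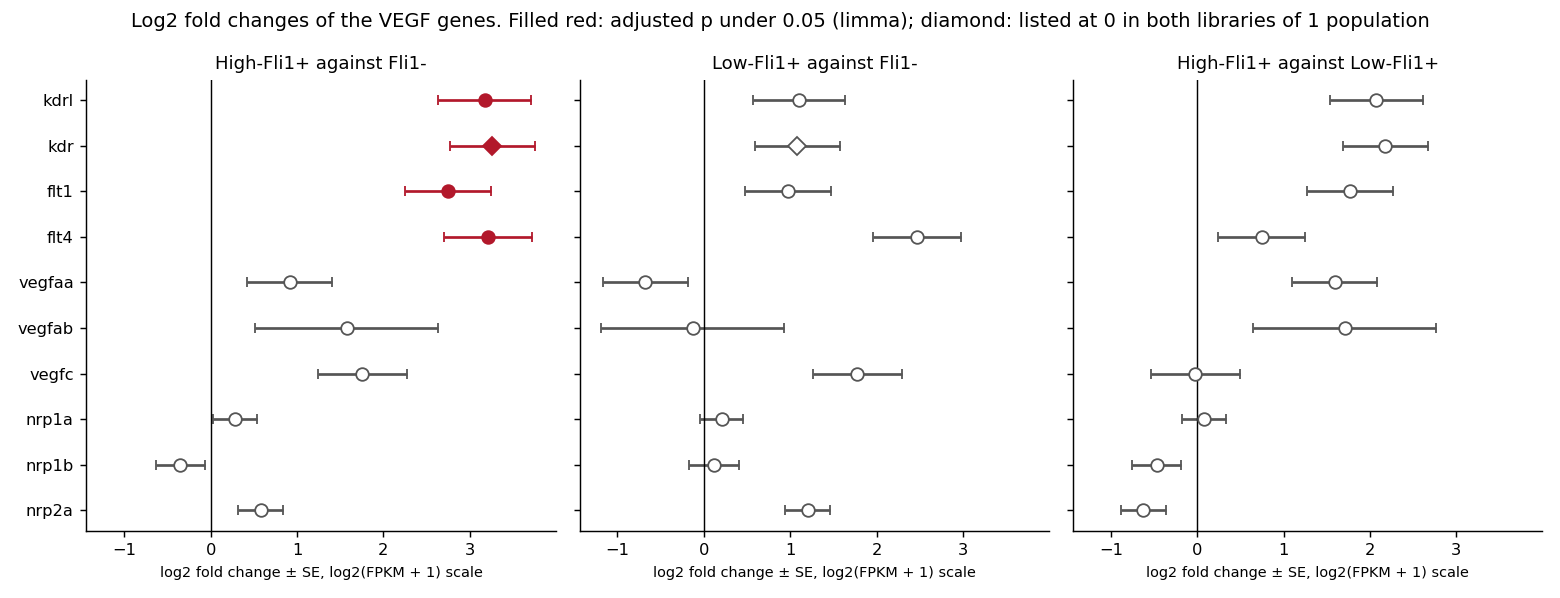
Log2 fold change (x axis, log2(FPKM + 1) scale, bars are SE) of the 10 genes in the 3 comparisons, 1 per panel. Filled red points passed an adjusted p of 0.05 by limma, which holds for the 4 receptors in the left panel, and a diamond marks kdr where it is listed at 0 in both Fli1- libraries, so that its position depends on the added 1.

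Low-Fli1+ against Fli1- cells shared the same Fli1- libraries and gave 0 calls among the 10 genes by limma, with 3 at an unadjusted p under 0.05, beside 3.23% of all genes called, 2.14% higher and 1.1% lower, and 20.7% at an unadjusted p under 0.05. The 3 were flt4, vegfc and nrp2a. The largest difference was that of flt4, a log2 fold change of 2.46 ± 0.51 (SE) with an adjusted p of 0.0640 by limma, and it was called under quantile normalization (2.85, adjusted p = 0.0370). For kdrl the log2 fold change was 1.1 with a 95% interval of -0.22 to 2.42 (adjusted p = 0.322 by limma), and for flt1 it was 0.98, from -0.24 to 2.20 (adjusted p = 0.339). Both Low-Fli1+ libraries were above both Fli1- libraries for 6 of the 10 genes, the 4 receptors, vegfc and nrp2a, beside 18.9% of all genes.

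Between the reporter-positive populations, 0 of the 10 genes were called by limma and 4 had an unadjusted p under 0.05, beside 5.37% of all genes called, 1.22% higher and 4.15% lower, and 23.9% at an unadjusted p under 0.05. The 4 were kdrl, kdr, flt1 and vegfaa. For kdr the log2 fold change in High-Fli1+ against Low-Fli1+ cells was 2.18 ± 0.49 (SE) with an adjusted p of 0.0636, and for kdrl it was 2.07 ± 0.54 (SE) with 0.0845. Here kdr was called with a pseudocount of 5 (1.15, adjusted p = 0.0420), with median-ratio scaling (2.43, adjusted p = 0.0482) and with no variance trend (adjusted p = 0.0353), and kdrl without Low-Fli1+ replicate 2 (2.55, adjusted p = 0.0426). For flt1 it was 1.77 ± 0.50 (SE) with an adjusted p of 0.0990, and for flt4 0.75, with a 95% interval of -0.50 to 1.99 (adjusted p = 0.430). Whether flt4 and kdrl differ in this step was not tested. Both High-Fli1+ libraries were above both Low-Fli1+ libraries for 5 of the 10 genes, beside 18.3% of all genes, and below them for nrp1b and nrp2a, beside 28.3%.

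The make-up of the receptor transcripts is given per library, and differences of shares between the populations were not tested. The 4 receptors summed to 48.5 and 46.9 FPKM in High-Fli1+, 11.9 and 18.3 FPKM in Low-Fli1+ and 2.61 and 1.22 FPKM in Fli1- libraries. Of these sums flt4 held 39.7% and 27.8% in High-Fli1+ libraries, 57.3% and 65.1% in Low-Fli1+ libraries and 46.7% and 40.4% in Fli1- libraries. It was the largest part in both Low-Fli1+ libraries, while kdrl held 31.0% and 38.5% in High-Fli1+ libraries, 16.7% and 26.2% in Low-Fli1+ libraries and 45.5% and 59.6% in Fli1- libraries, where its share was highest. Shares in Fli1- libraries rest on low sums of 2.61 and 1.22 FPKM, with kdr listed at 0 in both. The share of kdr was 17.7% and 18.3% in High-Fli1+ and 12.9% and 4.18% in Low-Fli1+ libraries. For flt1 the share was 11.6% and 15.4% in High-Fli1+ libraries, 13.1% and 4.53% in Low-Fli1+ libraries and 7.85% and 0% in Fli1- libraries, so both reporter-positive populations overlapped. Set against the summed endothelial markers, the receptor sum was 0.414 and 0.354 in High-Fli1+ libraries, 0.766 and 1.31 in Low-Fli1+ libraries and 0.244 and 0.141 in Fli1- libraries. The ratio was thus highest in both Low-Fli1+ libraries. Its denominators were low there, at 15.5 and 14.0 FPKM, with 3 and 5 of the 10 markers listed at 0. In Fli1- libraries they were lower still, at 10.7 and 8.66 FPKM, with 4 markers at 0 in each. Whether receptor transcripts keep 1 ratio to the endothelial markers across populations cannot be told from such low values. Low-Fli1+ libraries also had the highest leukocyte marker sums. The 5 markers of mural cells and fibroblasts summed to 1196 and 1039 FPKM in High-Fli1+, 776 and 941 FPKM in Low-Fli1+ and 64.9 and 123 FPKM in Fli1- libraries. The part of either marker list in the receptor levels was not tested.

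**Figure D3:**
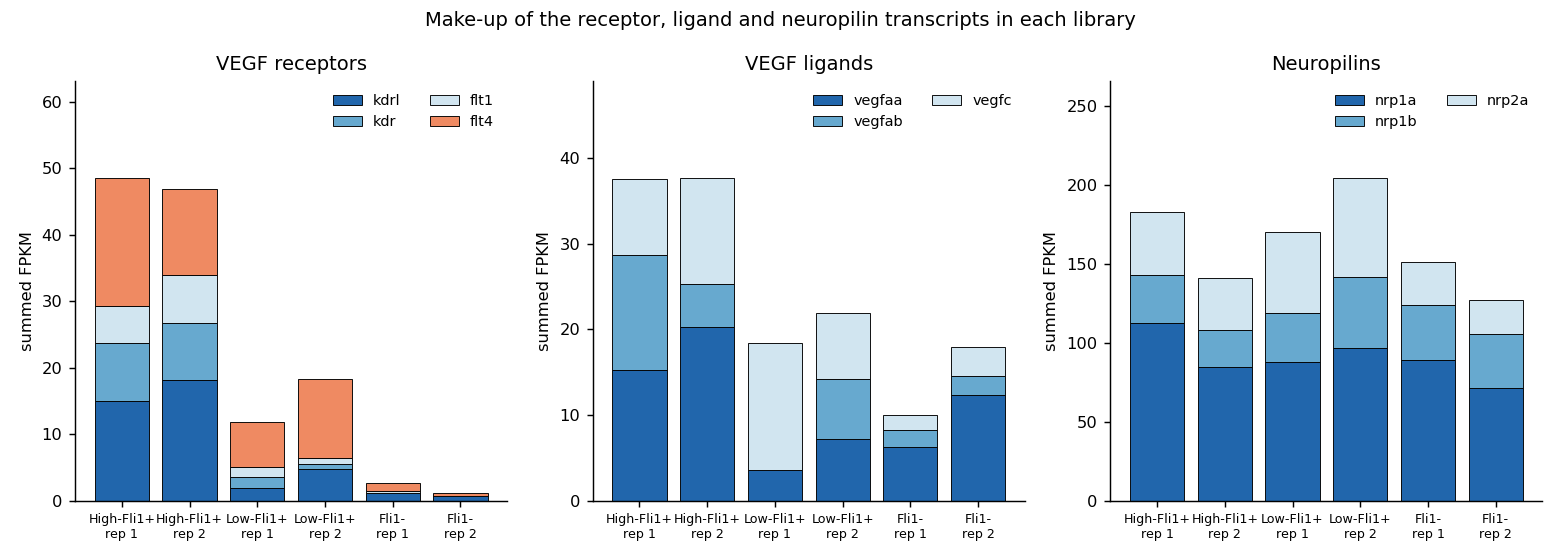
Summed FPKM (y axis) of the 4 receptors, the 3 ligands and the 3 neuropilins in each library (x axis), divided by gene. The receptor sum is 48.5 and 46.9 FPKM in High-Fli1+ and 2.61 and 1.22 FPKM in Fli1- libraries, while the neuropilin sums are 183 and 141 FPKM in High-Fli1+, 170.5 and 205 FPKM in Low-Fli1+ and 151 and 127 FPKM in Fli1- libraries.

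Each of the 3 ligands was above both Fli1- libraries in both High-Fli1+ libraries, and none was called. The main VEGF-A gene vegfaa had 15.2 and 20.3 FPKM in High-Fli1+, 3.62 and 7.20 FPKM in Low-Fli1+ and 6.31 and 12.3 FPKM in Fli1- libraries. High-Fli1+ libraries were above all others, and Low-Fli1+ and Fli1- libraries overlapped. The log2 fold change of vegfaa was 0.91 ± 0.49 (SE) in High-Fli1+ against Fli1- cells (adjusted p = 0.269 by limma), -0.68 in Low-Fli1+ against Fli1- cells (adjusted p = 0.494) and 1.59 ± 0.49 (SE) in High-Fli1+ against Low-Fli1+ cells (adjusted p = 0.121). Its paralogue vegfab had 13.5 and 4.95 FPKM in High-Fli1+, 0 and 7.04 FPKM in Low-Fli1+ and 1.99 and 2.23 FPKM in Fli1- libraries. A single library decides its place in Low-Fli1+ cells, where the log2 fold change against Fli1- cells was -0.13 ± 1.06 (SE, adjusted p = 0.964 by limma), 1.37 without Low-Fli1+ replicate 1 (adjusted p = 0.264) and -1.64 without Low-Fli1+ replicate 2. For High-Fli1+ against Fli1- cells it was 1.58 ± 1.06 (SE) (adjusted p = 0.373).

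The lymphatic and venous growth factor vegfc had 8.85 and 12.4 FPKM in High-Fli1+, 14.8 and 7.64 FPKM in Low-Fli1+ and 1.66 and 3.36 FPKM in Fli1- libraries. Both reporter-positive populations lay above Fli1- and overlapped with each other. The log2 fold change was 1.76 ± 0.52 (SE) in High-Fli1+ against Fli1- cells (adjusted p = 0.0706 by limma) and 1.78 ± 0.52 (SE) in Low-Fli1+ against Fli1- cells (adjusted p = 0.126). In the first of these vegfc was called under quantile normalization (2.40, adjusted p = 0.0345), median-ratio scaling (2.01, adjusted p = 0.0473), and without Low-Fli1+ replicate 1 (adjusted p = 0.0485) or replicate 2 (0.0461). In High-Fli1+ against Low-Fli1+ cells it was -0.02, with a 95% interval of -1.29 to 1.25, and its sign turned under both scalings. Of the summed FPKM of the 3 ligands, vegfaa held 40.6% and 53.9% in High-Fli1+ and 63.4% and 68.8% in Fli1- libraries, and vegfc held 23.6% and 33.0% in High-Fli1+ and 16.6% and 18.8% in Fli1- libraries. In Low-Fli1+ libraries vegfc was the largest part, at 80.3% and 34.9%. In replicate 1 vegfaa held 19.7% and vegfab was listed at 0. In replicate 2 vegfaa held 32.9% and vegfab 32.2%, close to vegfc.

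Neuropilin transcripts were abundant in every library, and none of the 3 genes was called in any comparison. The VEGF and semaphorin co-receptor nrp1a had 113 and 84.4 FPKM in High-Fli1+, 87.8 and 97.0 FPKM in Low-Fli1+ and 88.9 and 71.7 FPKM in Fli1- libraries. It was the highest of the 10 genes in each of the 6 libraries and stood above 96.3% to 98.2% of all entries. The populations overlapped, and in High-Fli1+ against Fli1- cells the log2 fold change was 0.28, with a 95% interval of -0.33 to 0.90 (adjusted p = 0.506 by limma). Its paralogue nrp1b had 30.4 and 23.8 FPKM in High-Fli1+, 31.3 and 45.1 FPKM in Low-Fli1+ and 35.3 and 33.8 FPKM in Fli1- libraries. Both High-Fli1+ values were below the other 4, and the log2 fold change of -0.35 against Fli1- cells (95% interval -1.05 to 0.35, adjusted p = 0.465) equals the median of all genes tested.

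The VEGF-C co-receptor nrp2a followed another order, with 40.0 and 33.2 FPKM in High-Fli1+, 51.5 and 62.5 FPKM in Low-Fli1+ and 27.0 and 21.5 FPKM in Fli1- libraries. Low-Fli1+ libraries were the highest and Fli1- the lowest, and no 2 populations overlapped. The log2 fold change was 1.20 ± 0.26 (SE) in Low-Fli1+ against Fli1- cells (adjusted p = 0.0689 by limma), 0.58 ± 0.26 (SE) in High-Fli1+ against Fli1- cells (adjusted p = 0.192) and -0.63 ± 0.26 (SE) in High-Fli1+ against Low-Fli1+ cells (adjusted p = 0.216). The remaining family member nrp2b, added after its values were seen, had 99.7 and 87.3 FPKM in High-Fli1+, 89.4 and 66.4 FPKM in Low-Fli1+ and 78.9 and 83.8 FPKM in Fli1- libraries. High-Fli1+ libraries lay just above Fli1- libraries for nrp2b, with an adjusted p of 0.645 by limma. Neuropilin transcripts outweighed receptor transcripts 3.77 and 3.02 times in High-Fli1+ libraries, 14.4 and 11.2 times in Low-Fli1+ and 57.8 and 104 times in Fli1- libraries. These ratios count the 3 neuropilins and 4 receptors, and those of Fli1- libraries rest on low receptor sums of 2.61 and 1.22 FPKM. Neuronal markers, of cells that also express neuropilins, summed to 60.2 and 17.3 FPKM in High-Fli1+, 624 and 430 FPKM in Low-Fli1+ and 1059 and 871 FPKM in Fli1- libraries. Their part in the neuropilin levels was not tested, nor was that of the mural cell and fibroblast markers, whose sums are given above.

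Around these 10 genes, 105 others of the pathway were found in the table and 104 tested, in lists of ligand maturation, receptor signalling, negative regulators, VEGF response and tip cells, and semaphorins with plexins. With Fli1- cells as the comparison 16 were higher and 10 lower in High-Fli1+ cells, with a median log2 fold change of 0.28. These are 15.4% and 9.62% of the 104, beside 5.79% and 11.5% of all genes tested, so the share called lower is near that of all genes. The 9 genes on other ligands, neuropilins and ligand maturation had 1 higher and 1 lower (median 0.20). The protease gene adamts3, whose product activates VEGF-C, had 28.7 and 23.2 FPKM in High-Fli1+, 7.78 and 11.8 FPKM in Low-Fli1+ and 2.25 and 2.79 FPKM in Fli1- libraries, ordered by population with no overlap. High-Fli1+ cells held 7.64-fold more of it than Fli1- cells (2.93 ± 0.39 (SE) as log2, adjusted p = 0.00788 by limma). The VEGF-B gene vegfbb was called lower (adjusted p = 0.0444 by limma). It was listed at 0 in all High-Fli1+ and Low-Fli1+ libraries and at 1.71 and 2.65 FPKM in Fli1- libraries. It passed the minimum for testing only through its Fli1- values, so a call could only be lower. Its call was lost under quantile normalization (adjusted p = 0.160), with a pseudocount of 5 (0.0675) and with the replicate block (0.0863). With the filter at a mean of 2 FPKM it was not tested. Its paralogue vegfba was not called (log2 fold change -1.72, adjusted p = 0.234 by limma).

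Kinases and adaptors downstream of the receptors had 2 higher and 4 lower of 46 in High-Fli1+ against Fli1- cells (median -0.01, and 0.26 under quantile normalization). These shares, 4.35% and 8.70%, are near or below the 5.79% and 11.5% of all genes, so the list does not stand out by its calls. The Src-family kinase fyna, also active in neurons, had 2.15 and 0.338 FPKM in High-Fli1+, 37.7 and 22.5 FPKM in Low-Fli1+ and 38.8 and 35.5 FPKM in Fli1- libraries. In High-Fli1+ cells fyna was 18.5-fold below its Fli1- level (-4.21 ± 0.51 (SE) as log2, adjusted p = 0.00649 by limma) and also below its Low-Fli1+ level (-3.88 as log2, adjusted p = 0.0220). Also lower were the MEK1 gene map2k1 (log2 fold change -2.64, adjusted p = 0.0308), the AKT kinase gene akt3b (-1.75, adjusted p = 0.00940) and the protein kinase D gene prkd1 (-1.71, adjusted p = 0.0411), while another protein kinase D gene, prkd2 (2.15, adjusted p = 0.0279) and the PI3-kinase subunit gene pik3cb (1.89, adjusted p = 0.0396, 0.0539 with the replicate block and 0.0505 with no variance trend) were higher. The calls of akt3b and prkd1 were not followed over the other settings. Values of prkd1 were low, at 0 and 0.243 FPKM in High-Fli1+ and 2.75 and 2.55 FPKM in Fli1- libraries. It passed the minimum for testing only through its Fli1- values.

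The list of negative regulators had 4 higher and 0 lower of 16 in High-Fli1+ against Fli1- cells (median 0.88), which is 25.0% and 0%, beside 5.79% and 11.5% of all genes. The endothelial receptor phosphatase gene ptprb, whose product counters Tie2 and VEGF receptor signalling in mammals, had 11.2 and 13.8 FPKM in High-Fli1+ and 0.680 and 0.0506 FPKM in Fli1- libraries. It was listed at 0 in both Low-Fli1+ libraries, where kdrl was present at 1.98 and 4.80 FPKM. Those libraries list the most entries at 0, so these zeros do not show that ptprb was absent. It passed the minimum for testing only through its High-Fli1+ values. The difference of High-Fli1+ against Fli1- cells was 10.1-fold (3.34 ± 0.51 (SE) as log2, adjusted p = 0.0115 by limma). In High-Fli1+ cells ptprb was also called against Low-Fli1+ cells (adjusted p = 0.0232). The inhibitors of the ERK pathway spred2b (log2 fold change 1.41, adjusted p = 0.0321), dusp5 (1.12, adjusted p = 0.0384) and dusp6 (0.92, adjusted p = 0.0462) were higher as well. With no variance trend spred2b (0.0614), dusp5 (0.0836) and dusp6 (0.133) were not called, nor were dusp5 (0.0527) and dusp6 (0.0535) with the replicate block. In High-Fli1+ against Low-Fli1+ cells none of them was called, with log2 fold changes of 0.74 for spred2b, -0.17 for dusp5 and 0.06 for dusp6. Means in High-Fli1+ and Low-Fli1+ libraries were 31.1 and 35.2 FPKM for dusp5 and 100.7 and 97.7 FPKM for dusp6, so both populations held similar levels of these genes.

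Genes of the VEGF response and tip cells went both ways, 2 higher and 2 lower of 16 (median 0.49). Each is 12.5%, beside 5.79% of all genes called higher and 11.5% called lower. The immediate early factor egr1 was at 579 and 405 FPKM in High-Fli1+, 340 and 262 FPKM in Low-Fli1+ and 152 and 105 FPKM in Fli1- libraries, a 3.80-fold difference of High-Fli1+ over Fli1- cells (adjusted p = 0.0149 by limma). The homeobox gene hlx1 was also higher (log2 fold change 2.37, adjusted p = 0.0328, 0.0515 with the replicate block). It had 7.25 and 11.3 FPKM in High-Fli1+, 10.6 and 15.4 FPKM in Low-Fli1+ and 1.63 and 0.453 FPKM in Fli1- libraries. Its mean was thus highest in Low-Fli1+ libraries, and the reporter-positive populations overlapped (log2 fold change -0.46 in High-Fli1+ against Low-Fli1+ cells, adjusted p = 0.638 by limma). The nuclear receptor gene nr4a2a, which also marks certain neurons, had 0.384 and 0.0584 FPKM in High-Fli1+, 26.8 and 22.4 FPKM in Low-Fli1+ and 12.7 and 14.9 FPKM in Fli1- libraries. It was lower in High-Fli1+ cells against Fli1- cells (12.2-fold, adjusted p = 0.00532) and against Low-Fli1+ cells (21.0-fold, adjusted p = 0.0126). The netrin receptor gene unc5b was lower (log2 fold change -1.56, adjusted p = 0.0330), with the call lost under quantile normalization (0.0791), median-ratio scaling (0.0560) and the replicate block (0.0515).

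Semaphorin ligands of the neuropilins, listed with the plexins, had the most calls, 7 higher and 3 lower of 17 (median 0.66). That is 41.2% and 17.6%, beside 5.79% and 11.5% of all genes. The 7 higher were all semaphorins. The 3 lower were sema3gb and the plexins plxna3 (log2 fold change -1.01, adjusted p = 0.0416 by limma) and plxna4 (-2.27, adjusted p = 0.0212). Neither plexin call was followed over the other settings. The calls of sema3aa (adjusted p = 0.0371 by limma), sema3e (0.0291), sema3fb (0.0297) and sema3h (0.0429) were not followed either. The plexins plxna1a (-0.76), plxna1b (-0.86) and plxna2 (-1.02) were not called but also had negative log2 fold changes. The largest rise was in sema3d, which encodes a secreted guidance factor, at 49.5 and 64.6 FPKM in High-Fli1+, 17.7 and 30.5 FPKM in Low-Fli1+ and 2.00 and 3.89 FPKM in Fli1- libraries. High-Fli1+ cells were 15.0-fold above Fli1- cells (3.91 ± 0.42 (SE) as log2, adjusted p = 0.00487 by limma) and Low-Fli1+ cells 6.34-fold above them (adjusted p = 0.0365). The related sema3bl stood at 79.3 and 68.9 FPKM in High-Fli1+, 24.8 and 21.4 FPKM in Low-Fli1+ and 5.86 and 8.34 FPKM in Fli1- libraries, with no overlap, and was called in all 3 comparisons (adjusted p = 0.00331, 0.0487 and 0.0371 in the order above). The second and the third of these calls were lost with the replicate block (0.0776 and 0.0528), with no variance trend (0.0747 and 0.0625) and in fits of only the 2 populations compared (0.118 and 0.143), and the second also with a pseudocount of 5 (0.0551). Against Fli1- cells, the semaphorin gene sema3ab was higher (log2 fold change 2.35, adjusted p = 0.0128) and sema3gb lower (-2.72, adjusted p = 0.0157) in High-Fli1+ cells. The semaphorin co-receptor gene plxna4, known from neurons, was at 6.48 and 3.26 FPKM in High-Fli1+, 42.1 and 23.2 FPKM in Low-Fli1+ and 26.6 and 25.9 FPKM in Fli1- libraries. High-Fli1+ cells were below Low-Fli1+ cells (log2 fold change -2.52, adjusted p = 0.0365, and 0.0533 with no filter on low values). All 7 neuronal markers were called lower in High-Fli1+ against Fli1- cells as well, and their part in the differences of fyna, nr4a2a and plxna4 was not tested.

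**Figure D4:**
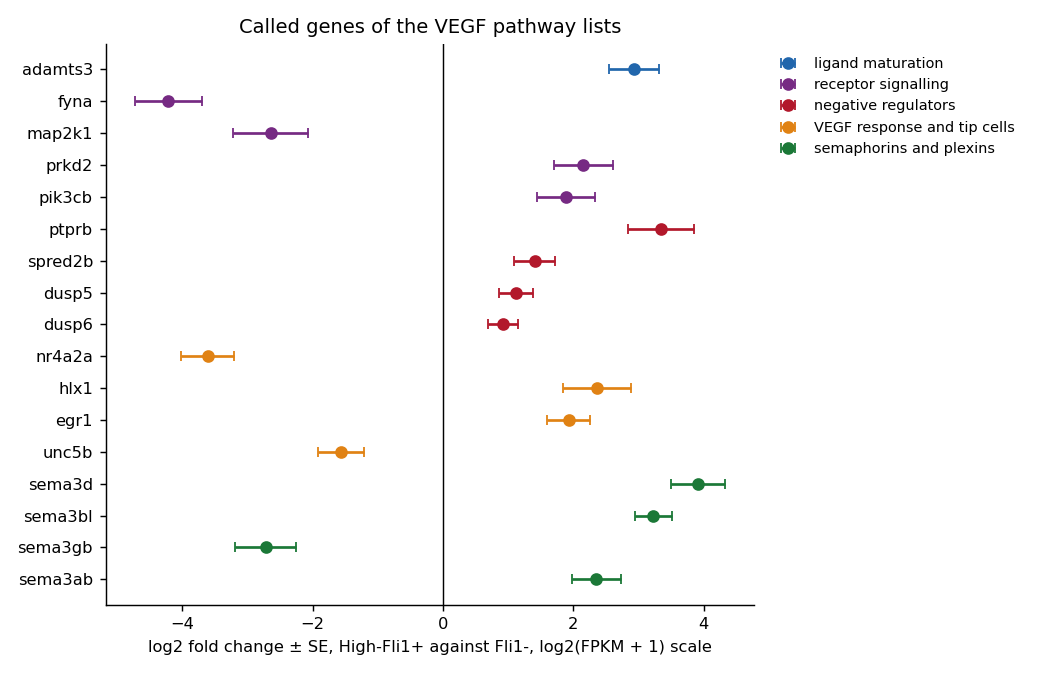
Log2 fold change in High-Fli1+ against Fli1- cells (x axis, log2(FPKM + 1) scale, bars are SE) of the called genes with the largest changes in each list of the VEGF pathway, coloured by list and without vegfbb, which is listed at 0 in High-Fli1+ libraries. Negative regulators from ptprb (3.34) to dusp6 (0.92) are higher, and receptor signalling genes lie on both sides, from fyna (-4.21) to prkd2 (2.15).

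In Low-Fli1+ against Fli1- cells, 2 of the 104 pathway genes were higher, sema3d and sema3bl, and 0 lower, with 28 at an unadjusted p under 0.05 by limma. That is 1.92% higher and 0% lower, beside 2.14% and 1.1% of all genes, and 20.7% of all genes had an unadjusted p under 0.05. High-Fli1+ against Low-Fli1+ cells gave 2 higher, ptprb and sema3bl, and 3 lower, fyna, nr4a2a and plxna4, which is 1.92% and 2.88%, beside 1.22% and 4.15% of all genes. Fits of only the 2 populations compared ended all named calls of these 2 comparisons, with adjusted p between 0.111 and 0.164. Of the genes called in High-Fli1+ against Fli1- cells, those named by rule were 22, receptors included. All 22 remained called when either Low-Fli1+ library was left out. Without High-Fli1+ replicate 1 there remained 4 of them (fyna, nr4a2a, sema3bl and sema3gb), without High-Fli1+ replicate 2 none, without Fli1- replicate 1 the pair vegfbb and sema3bl, and without Fli1- replicate 2 there remained 3 (vegfbb, sema3d and sema3bl). Both named calls in Low-Fli1+ against Fli1- cells were lost without any 1 of the 6 libraries, as were all 5 in High-Fli1+ against Low-Fli1+ cells, but fyna, ptprb, nr4a2a and plxna4 remained called without Low-Fli1+ replicate 2.

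Patterns were compared over the 6 libraries by the root mean square difference of centred log2(FPKM + 1) values. The search held 7104 genes, those with a mean of at least 5.0 FPKM and an SD of at least 0.5. Nearest to kdrl among them were PLOD3, a collagen lysyl hydroxylase (0.0973), wwp2, a ubiquitin ligase (0.132), and chsy3, a chondroitin sulfate synthase (0.167). Next came sec24d, a subunit of the COPII vesicle coat (0.216), and ppfibp1a, a liprin (0.223). On this measure, where smaller is closer, kdr differed from kdrl by 0.447, flt1 by 0.453 and flt4 by 0.680. The rank of flt4 was 316. Both kdr and flt1 were under the minimum mean, so they were not searched, and would rank 59 and 61. Any other endothelial gene under that mean was left out too, so the list does not show that kdrl was unlike endothelial genes. PLOD3 had 129 and 130.5 FPKM in High-Fli1+, 22.0 and 45.9 FPKM in Low-Fli1+ and 17.3 and 13.5 FPKM in Fli1- libraries. The added 1 shrinks the log2 differences of kdrl, at 1.19 and 0.725 FPKM in Fli1- libraries, more than those of PLOD3. Closeness on this scale, also that of kdr and flt1, thus depends in part on the added 1. Nearest to vegfaa were ryk, a Wnt receptor (0.216), the chaperone gene dnajc1 (0.234), yipf5 of the secretory pathway (0.247), the mitochondrial gene mt-co2 (0.255) and frs2a, an adaptor of FGF receptors (0.263). The other VEGF-A gene vegfab, also under the minimum mean, differed from vegfaa by 0.872 and would rank 1303. These likenesses are a description of 6 libraries of mixed cells, with no test.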

How the data were processed

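Values are FPKM per gene and library, per the file headers, made by the authors from poly-A enriched RNA of 6 samples. The aligner, genome build and annotation are not given in the sources used here. Of 29144 entries, 18 named by a calendar date were left out. The sequencing depth is unknown. Steps among low values were read only below 0.6 FPKM, and below 0.3 FPKM in Fli1- replicate 1. That is under the 5th percentile of values above 0 in Low-Fli1+ libraries (0.915 and 0.660 FPKM), where 84 and 107 genes entered. These steps therefore cannot order the depth of Low-Fli1+ libraries, and single values carry no counting interval.

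Genes with a mean of at least 0.5 FPKM were fitted as log2(FPKM + 1), with no further scaling, by population over all 6 libraries in limma 3.58.1 (R 4.3.3) with a variance trend (3 residual and 2.89 prior degrees of freedom). Calls are at 0.05 after Benjamini-Hochberg adjustment across the 19237 genes fitted, and intervals are limma's at 95%. With 2 libraries a population, an exact permutation test (two-sided) cannot go below p = 0.333. The procedure was tested on simulated data.

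Named genes are all 10 VEGF genes, the called genes with up to 4 of the largest changes per pathway list and comparison, the 5 nearest patterns of kdrl and vegfaa (mean of at least 5 FPKM, SD of at least 0.5), and fli1a. Members and lists were chosen with earlier results of these data known. Of 112 pathway names, 105 entries were found, vegfd as figf through RefSeq. The alternatives tried were other pseudocounts, filters and scalings, no variance trend, fits of 2 populations only, the replicate number as a block, and leaving out each library, with the same genes tested where libraries were left out. A lone library of a population was then assumed to vary like the others.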

Additional observations from a re-analysis of the deposited data

How the results depend on the processing

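The 10 genes and the named pathway genes were refitted under 15 settings. The count of VEGF genes called in High-Fli1+ against Fli1- cells was 4 and stayed at 4 or 5 except when a library of either population was left out, with a range of 0 to 5 over the 6 libraries left out. In Low-Fli1+ against Fli1- cells the count was 1 under quantile normalization (flt4) and otherwise 0. In High-Fli1+ against Low-Fli1+ cells it was 1 with a pseudocount of 5, median-ratio scaling or no variance trend (kdr) and 0 to 1 over the libraries left out. Over all genes, 3316, 622 and 1033 were called in the 3 comparisons in that order, and leaving out single libraries gave 201 to 4906, 0 to 797 and 0 to 2262. Fits of only the 2 populations compared, with 2 residual degrees of freedom, called 0 in Low-Fli1+ against Fli1- cells and 0 in High-Fli1+ against Low-Fli1+ cells. At an unadjusted p under 0.05 by limma these fits gave 3875 and 3686. In a separate setting over all 6 libraries, with no filter on low values, 590 were called in High-Fli1+ against Low-Fli1+ cells. The share of higher calls was 33.6% in High-Fli1+ against Fli1- cells and 49.2% under quantile normalization, and 22.7% in High-Fli1+ against Low-Fli1+ cells and 40.5% under median-ratio scaling. In High-Fli1+ against Fli1- cells the median over all genes tested was -0.35 on the log2 scale, -0.10 with median-ratio scaling and 0.01 with quantile normalization.

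Signs turned in genes that were not called. In Low-Fli1+ against Fli1- cells vegfab was at 0.13 with a pseudocount of 5, 0.50 under quantile normalization and from -1.64 to 1.37 over the libraries left out, and nrp1b from -0.14 to 0.37 over the libraries left out. In High-Fli1+ against Low-Fli1+ cells vegfc was at 0.34 under quantile normalization, 0.31 under median-ratio scaling, 0.20 without High-Fli1+ replicate 1 and from -0.45 to 0.41 over the libraries left out, and nrp1a from -0.13 to 0.28 over the libraries left out. The cause was not tested. Of the 824 refitted values of single genes, 662 kept direction and side of the threshold, 144 lost a call, 9 gained one and 9 changed sign.

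The replicate numbers were used as a block in 1 setting. The differences between replicates 2 and 1 correlated across genes at 0.121 (High-Fli1+ and Low-Fli1+), 0.0806 (High-Fli1+ and Fli1-) and 0.0962 (Low-Fli1+ and Fli1-). The labels do not say what a replicate number shares, so the main fit did not treat the numbers as pairs. With the replicate block 4, 0 and 0 of the VEGF genes were called in the 3 comparisons, and 335 of all genes in Low-Fli1+ against Fli1- cells. Without counts, low values such as those of kdr and flt1 outside High-Fli1+ cells have unknown counting error.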

Other observations

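Of the 12 tested genes of VEGF response and tip cells that were not called in High-Fli1+ against Fli1- cells, 5 had their highest mean in High-Fli1+ cells (dll4, esm1, apln, cxcr4a and egr3), 3 in Low-Fli1+ cells (aplnra, angpt2b and nr4a1) and 4 in Fli1- cells (aplnrb, pfkfb3, rcan1a and rcan2). The genes described here were chosen after their values were seen, and the list as a whole did not follow 1 direction. The apelin receptor gene aplnrb had 0.387 and 4.003 FPKM in High-Fli1+, 10.2 and 7.09 FPKM in Low-Fli1+ and 8.46 and 8.86 FPKM in Fli1- libraries (adjusted p = 0.126 by limma in High-Fli1+ against Fli1- cells). The Notch ligand gene dll4, a target of VEGF signalling in tip cells, had 20.8 and 22.9 FPKM in High-Fli1+, 7.02 and 3.90 FPKM in Low-Fli1+ and 10.6 and 6.99 FPKM in Fli1- libraries. Its log2 fold change was 1.86 ± 0.41 (SE) in High-Fli1+ against Low-Fli1+ cells (adjusted p = 0.0615 by limma) and 1.24 ± 0.41 (SE) in High-Fli1+ against Fli1- cells (adjusted p = 0.0967). The tip cell proteoglycan gene esm1 had 5.71 and 6.63 FPKM in High-Fli1+, 0 and 1.1 FPKM in Low-Fli1+ and 1.15 and 0.126 FPKM in Fli1- libraries (adjusted p = 0.0631 in High-Fli1+ against Fli1- cells). Both genes were above all other libraries in both High-Fli1+ libraries, as vegfaa was. The VEGF-D gene, listed as figf, had 9.33 and 4.29 FPKM in High-Fli1+, 5.24 and 3.30 FPKM in Low-Fli1+ and 1.12 and 0 FPKM in Fli1- libraries (adjusted p = 0.0607 in High-Fli1+ against Fli1- cells). Like its relative vegfc it was above Fli1- in every reporter-positive library, and its reporter-positive populations overlapped.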
